A study of Rattus norvegicus with 20 samples.

Results

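The 7 genes described here encode the rat major histocompatibility complex (MHC) class II antigen presentation machinery: Cd74, RT1-Ba, RT1-Bb, RT1-Da, RT1-Db1, RT1-DMa and RT1-DMb. They were taken by symbol from the annotation of the array, and they are 7 of the 7113 genes with a probe set bright enough to be tested. The annotation gave them 10 probe sets, of which 8 passed the filter on dim signals, and each gene is described by its brightest probe set on average. All 7 genes passed.

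The tissue was visceral white fat of male rats of the outbred Wistar strain, hybridised to 20 Affymetrix chips of 1 colour. From 6 weeks of age the animals were given a purified diet at the recorded intake (control) or at 5%, 10%, 20% or 30% below it, for 1 week or 1 month, and all of them were fasted for 16 h at the end. Each of the 10 groups was 1 pool of RNA from 5 rats, and the labelled RNA of a pool was divided over 2 chips. The pool is therefore the replicate, each group holds 1 pool, and the 2 chips of a pool measure technical spread only.

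Class II molecules display peptides from engulfed or endocytosed protein to helper T cells. An alpha and a beta chain, of the DQ-like RT1-B or the DR-like RT1-D type, pair in the endoplasmic reticulum with the invariant chain encoded by Cd74, which blocks the groove and guides the complex to endosomes. There the invariant chain is cut down to a short remnant, and the DM heterodimer of RT1-DMa and RT1-DMb exchanges that remnant for peptide. The genes are transcribed together in B cells, dendritic cells and macrophages under the coactivator encoded by Ciita, and in other cells, adipocytes among them, after interferon gamma. Fat depots hold macrophages, and visceral fat can also carry lymphoid clusters and lymph nodes.

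The class II genes are known to share an arrangement of promoter elements, an X box followed by a Y box, and this arrangement was looked for in the RefSeq promoters of the assembly GRCr8, which ran from 250 bases before to 50 bases after each gene start. Promoters of 6 of the 7 genes were matched. The Y box core ATTGG was present on either strand in 6 of 6, against 37.5% of all 33465 promoters. The X box core AGNAACNG lay 15 to 40 bases before ATTGG on one strand in 2 of 6, RT1-Da and RT1-Db1, against 0.436% of all promoters. With the looser core GNNACNG, chosen after the promoters had been read, 5 of 6 held the pair, against 4.63% of all promoters. The 5 windows with the looser pair are shown for comparison, 3 of which (RT1-Ba, RT1-Bb and RT1-DMa) hold the pair only in that form. Each runs 5′ to 3′ on the gene's own strand, with the X core and the Y core in capitals.
RT1-Da, chr20:4515328-4515374, plus strand: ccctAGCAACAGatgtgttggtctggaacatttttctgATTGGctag
RT1-Db1, chr20:4560234-4560279, minus strand: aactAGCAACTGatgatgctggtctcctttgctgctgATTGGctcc
RT1-Ba, chr20:4576977-4577022, plus strand: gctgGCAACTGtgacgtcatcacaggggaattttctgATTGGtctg
RT1-Bb, chr20:4604171-4604215, minus strand: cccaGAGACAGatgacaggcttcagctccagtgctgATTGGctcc
RT1-DMa, chr20:4712391-4712436, minus strand: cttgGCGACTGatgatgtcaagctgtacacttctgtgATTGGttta

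The spacing between the cores was 25 or 26 bases in all 5 windows, and the Y core began between 43 and 80 bases before the gene start. The Cd74 promoter held ATTGG on the other strand, 189 bases before the start, and neither form of the pair. These matches describe letters in the windows and were not tested as binding sites.

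The signals are MAS5 values on a linear scale. The sets of chips had been scaled apart before deposit, so levels are given after each chip was set to a trimmed mean of 100, while differences and fits used the deposited values within a duration. Duplicate chips of a pool correlated at 0.971 to 0.982 across probe sets. For the class II genes the 2 chips of a pool differed by up to 0.615 on the log2 scale in RT1-DMa and by up to 0.185 in Cd74. The label of the tissue fitted its markers: the mean log2 signal of 7 adipocyte genes lay between 10.27 and 10.60 in restricted pools and was 9.98 and 10.08 in control pools. Exocrine pancreas genes stood apart in 2 pools at 1 week. The digestive enzyme gene Prss1 read 349 in the 30% pool, against 6696 in the control of that duration, and between 6.23 and 18.5 in the other 8 pools.

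All 7 class II genes were lower in every restricted pool than in the control pool of the same duration, 56 of 56 comparisons. The same held for 14.8% of all tested probe sets. The smallest of the 56 differences, RT1-Db1 in the 5% pool at 1 month (−0.07 on the log2 scale), was within the spread of its chips. At 1 week the levels stepped down with the degree of restriction, while at 1 month the lowest levels were in the 10% and 20% pools and the 30% pool stood between them and the control.

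Cd74, the invariant chain, had pool signals of 2880, 2462, 624, 589 and 1561 at 1 month in the control, 5%, 10%, 20% and 30% pools. At 1 week it had 2930, 1783, 1428, 1100 and 561 in the same order. The highest and the lowest pool differed by 5.22-fold, and the separation of the 20% pool at 1 week from the 10% pool at 1 month, 0.82 on the log2 scale, was the widest gap in the order of the 10 pools. The 2 control pools lay within the spread of their chips, as did the 20% pool at 1 month and the 30% pool at 1 week.

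RT1-Ba, the alpha chain of the DQ-like molecule, read 1116, 947, 178, 171 and 643 at 1 month from the control to the 30% pool. At 1 week it read 928, 587, 440, 398 and 154. Its span of 7.26-fold was the widest of the 7 genes. Its partner, the beta chain RT1-Bb, read 1451, 1210, 251, 280 and 627 at 1 month. At 1 week RT1-Bb read 1626, 973, 630, 624 and 283. For RT1-Ba the 3 lowest pools, 10% and 20% at 1 month and 30% at 1 week, each lay within the chip spread of the next, and for RT1-Bb the same 3 pools did so in another order.

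RT1-Da, the alpha chain of the DR-like molecule, read 2960, 2522, 679, 580 and 1811 at 1 month and 2667, 1792, 1332, 1234 and 586 at 1 week, again from the control to the 30% pool. RT1-Db1, a DR-like beta chain, read 573, 547, 123, 120 and 294 at 1 month and 540, 327, 252, 219 and 108 at 1 week. The DR-like pair thus had the same 3 low pools as the DQ-like pair. The array names the RT1-Db1 probe set as one shared by several transcripts, so signal of related beta chains cannot be told apart from it. A second RT1-Db1 probe set was tested and read 113, 92.0, 25.5, 18.1 and 75.9 at 1 month and 107, 119, 70.5, 48.3 and 25.1 at 1 week, with the 5% pool at 1 week above its control.

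The DM genes, which encode the peptide exchange factor, moved over a narrower range. RT1-DMa read 127, 94.4, 44.2, 48.9 and 63.7 at 1 month and 96.7, 71.9, 56.9, 46.7 and 41.1 at 1 week, a span of 3.08-fold. RT1-DMb read 336, 280, 133, 124 and 234 at 1 month and 314, 201, 168, 166 and 156 at 1 week, a span of 2.70-fold. In the 30% pool at 1 week RT1-DMa and RT1-DMb were 1.23 and 1.00 below control on the log2 scale, whereas the other 5 genes were 2.19 to 2.59 below it. Whether the DM genes differed from the others in slope was not tested.

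**Figure D1:**
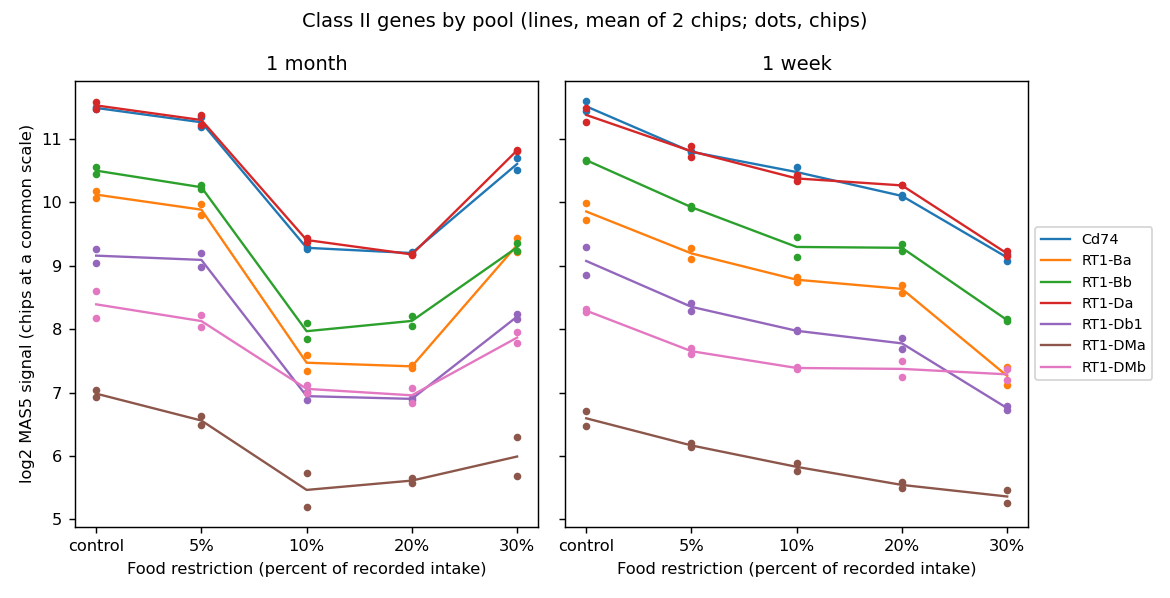
log2 MAS5 signal of the 7 class II genes against food restriction, at 1 month (left) and 1 week (right), with lines through the pool means and a dot for each of the 2 chips. All 7 lines are lowest at 10% or 20% at 1 month, and all 7 step down at each degree of restriction at 1 week, with RT1-DMb nearly level between 10% and 30%.

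Each restricted pool was next set against the control pool of its duration, with a gene called lower where both chip differences were negative and the pool was at least 1.5-fold lower; 1 pool per group allows no p-value here. Of the 56 comparisons 46 were called. At 1 month the 5% pool had 0 of 7 genes called, with a median log2 difference of −0.24, against 3.33% of all probe sets called lower. The 10% pool had 7 of 7 (median −2.21, against 13.7%), the 20% pool 7 of 7 (median −2.29, against 10.2%) and the 30% pool 6 of 7 (median −0.89, against 8.07%), with RT1-DMb outside at −0.53. These 3 pools differed in size of change and not in direction.

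At 1 week the 5% pool had 5 of 7 genes called (median −0.66, against 4.35% of all probe sets), with RT1-Da at −0.57 and RT1-DMa at −0.43 short of the limit. The 10% pool had 7 of 7 (median −1.04, against 7.21%), the 20% pool 7 of 7 (median −1.22, against 8.73%) and the 30% pool 7 of 7 (median −2.32, against 11.8%). The 4 restricted pools of a duration share 1 control pool, so their differences are not independent. The control pool of 1 week is also one of the pools with pancreas genes.

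The graded design was then fitted as a slope of log2 signal per 10% of restriction over both durations, with limma and with p-values adjusted over all 9520 probe sets by the Benjamini-Hochberg method. The 7 slopes ran between −0.25 and −0.60 with a median of −0.55, against a median of −0.011 over all probe sets. Only RT1-DMa passed the threshold of 0.05 (−0.35 ± 0.099 SE, adjusted p = 0.0472), 1 of 7 genes, against 3.69% of all probe sets called lower. RT1-Bb had the steepest slope and did not pass (−0.60 ± 0.19, adjusted p = 0.0672). Cd74 (−0.55 ± 0.18) and RT1-Db1 (−0.56 ± 0.18) had adjusted p-values of 0.0739 and 0.0727, RT1-Da (−0.50 ± 0.18) of 0.103, RT1-Ba (−0.58 ± 0.23) of 0.118 and RT1-DMb (−0.25 ± 0.11) of 0.171. The unadjusted p was under 0.05 for 6 of the 7, and for 30.1% of all probe sets in either direction.

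The calls rested on single pools. Without the 30% pool at 1 month all 7 genes passed and the median slope was −0.84. That refit called 854 of all 9520 probe sets lower, beside 351 with all pools. Without the 10% pool at 1 month 6 passed, with a median of −0.59, and 1008 of all probe sets were called lower. Leaving out any one of the other 8 pools left 0, RT1-DMa included, with medians between −0.44 and −0.56. Those refits called 26 to 293 of all probe sets lower. Without the 30% and control pools of 1 week, the pools with pancreas genes, 0 passed and the median was −0.38. Of all probe sets 4 were then called lower.

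At 1 month alone the slopes had a median of −0.39 and limma called 0 of 7 genes lower (0 also at an unadjusted p under 0.05, against 13.2% of all probe sets in either direction), against 0.0315% of all probe sets. At 1 week the median was −0.68 and limma called 0 of 7 (6 at an unadjusted p under 0.05, against 20.1% in either direction), against 0.0735%. The difference of the slopes, 1 month minus 1 week, was between 0.048 and 0.37 and was called for 0 of 7 genes, against 0% of all probe sets in either direction (0 of the 7 and 282 of all at an unadjusted p under 0.05). Its direction turned without the 30% pool at 1 month, where the differences were between −0.74 and −0.33. It also turned in 5 of 7 genes without the control and 30% pools of 1 week (median −0.050) and in 6 of 7 with a lymphocyte score, described further on, in the fit (median −0.064), and in 2 of 7 without the control pool of 1 week alone. In 1 of 7 genes it turned without the first chips, without the second chips and with the mean of all probe sets of a gene.

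Set as 8 restricted pools against 2 control pools, with no grading, the 7 genes were lower by a median of 1.37 on the log2 scale in restricted pools, and limma called 0 of 7, against 1.6% of all probe sets called lower, though all 7 had an unadjusted p under 0.05, as did 29.5% of all probe sets in either direction. RT1-DMa (−0.97 ± 0.26 SE) and RT1-DMb (−0.88 ± 0.25) came closest, with adjusted p-values of 0.0504 and 0.0623. Without the 5% pool at 1 month, the restricted pool with the highest class II signals, all 7 passed and the median was −1.58. That refit called 966 of all 9520 probe sets lower, beside 152 with all pools.

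The mean of the lymphocyte markers was lowest in the same pools as the mean of the class II genes. The 7 tested markers were 6 genes of the T cell receptor complex and its signalling (Cd3d, Cd3e, Cd3g, Cd247, Cd5 and Lck) and the B cell receptor component Cd79b, out of 28 listed. Their mean log2 signal, used as a score, lay between 3.31 and 7.93 in restricted pools and was 7.92 and 8.03 in control pools. These are levels at the common chip scale, and the fits took the score from the deposited signals. Cd3g, a chain of the T cell receptor complex, read 506, 579, 15.1, 18.0 and 237 at 1 month and 550, 326, 82.6, 156 and 20.5 at 1 week from the control to the 30% pool. Cd79b read 280, 255, 1.52, 3.05 and 132 at 1 month and 284, 121, 75.9, 91.1 and 2.09 at 1 week. The pools fell into a group with lymphocyte signal and the 10% and 20% pools of 1 month and the 30% pool of 1 week, where 6 of the 7 markers lay below 22.8, the signal of the filter. On the dose slope limma called 0 of the 7 markers (3 at an unadjusted p under 0.05), with Cd3d at −1.33 ± 0.50 (SE, adjusted p = 0.106), Cd3g at −1.02 ± 0.46 (adjusted p = 0.166) and Cd79b at −1.35 ± 0.69 (adjusted p = 0.211). In bulk tissue, fewer cells of a type and less RNA per cell cannot be told apart.

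In those 3 pools none of the 7 class II genes was below that signal. Their median stood at 21.7%, 20.5% and 20.0% of control in the 10% and 20% pools at 1 month and the 30% pool at 1 week, and the median of the lymphocyte markers at 7.25%, 4.16% and 5.77%, values that dim signals limit. In each of the 3 pools all 7 lymphocyte markers were further below control than every class II gene. The same held for all 7 in the 10% pool at 1 week, with 0 markers below the filter signal. There the class II genes were at 48.8% of control and the markers at 22.3%. In the 20% pool at 1 week it held for 6 markers (42.9% and 35.2%), and in the 5% pool for 5 (63.2% and 59.3%). In the 5% pool at 1 month the class II genes were at 84.8% of control and the lymphocyte markers at 99.9%. In the 30% pool at 1 month the class II genes were at 54.2% and the lymphocyte markers at 50.6%.

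**Figure D2:**
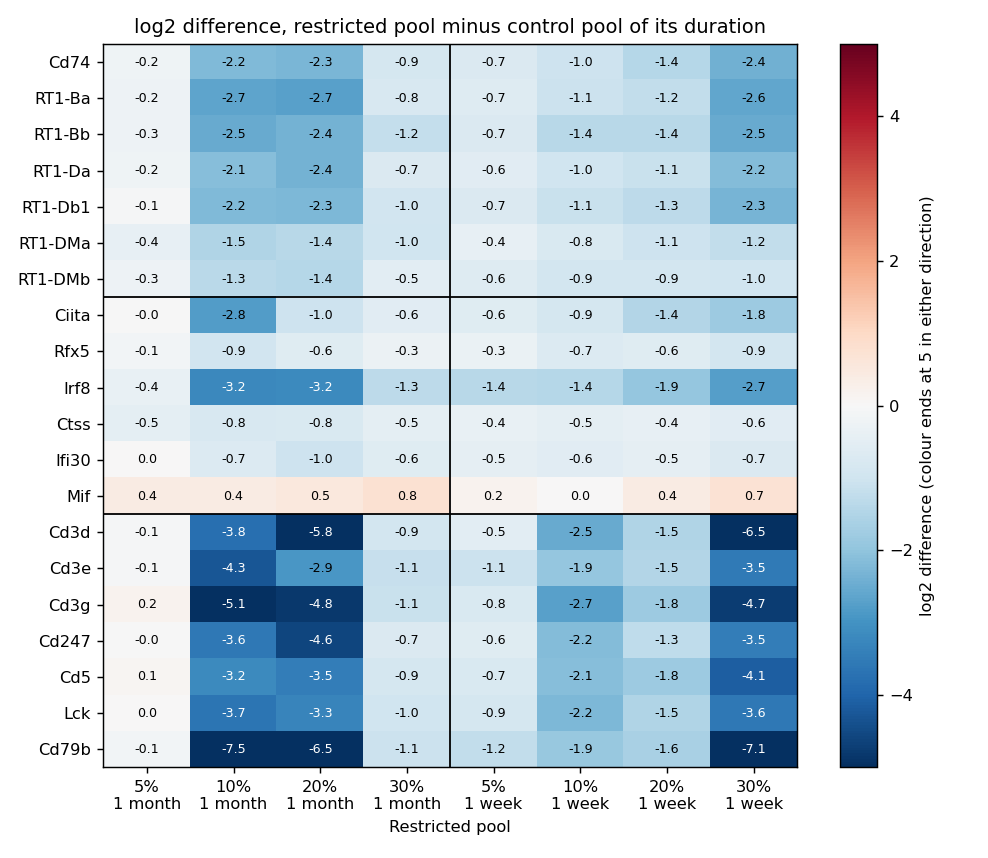
log2 difference of each restricted pool from the control pool of its duration, 1 month pools left and 1 week pools right. The rows are the 7 class II genes, 6 genes labelled class II regulation and peptide supply, and 7 lymphocyte markers. Of those 6, Mif encodes a cytokine that binds the Cd74 protein. The 10% and 20% columns of 1 month and the 30% column of 1 week are the darkest for the class II genes (−1.0 to −2.7) and for the lymphocyte markers (−2.9 to −7.5), and Mif is above control in all 8 columns.

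In the 3 pools at the low end of the lymphocyte score 6 of its 7 markers were below the signal of the filter, so the scale of the score there rests on background signals. Those markers passed the filter on their mean over all pools, through the pools where they were high. The 3 pools stood apart from the rest on the score, so the p-values that follow largely reflect that split. They are no independent support for a link. With the score as a further term in the fit, its coefficient was positive and passed the threshold for all 7 class II genes, against 4.63% of all probe sets called higher. A step of 1 log2 unit in the score went with 0.53 ± 0.030 (SE) in RT1-Ba (limma adjusted p = 1.78e-07), between 0.41 and 0.44 in Cd74, RT1-Bb, RT1-Da and RT1-Db1, 0.23 ± 0.042 in RT1-DMb (limma adjusted p = 0.00602) and 0.19 ± 0.042 in RT1-DMa (limma adjusted p = 0.0208). The DM coefficients did not pass without the 10% pool or without the 30% pool at 1 month, and the other 5 passed whichever pool was left out. Of all 9520 probe sets, 157 and 183 were called higher in those 2 refits, and 352 to 592 without any one of the other pools. With separate coefficients per duration and no dose term, all 7 passed at 1 month and 5 at 1 week, where the 2 DM genes had limma adjusted p-values of 0.111 and 0.125. Of all probe sets, 442 were called higher at 1 month and 185 at 1 week. With marker signals set to at least the filter signal, an alternative chosen after seeing the data, the score lay between 4.59 and 7.92, the coefficients lay between 0.28 and 0.74, and all 7 passed, against 6.73% of all probe sets called higher.

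In the same fit the dose slopes shrank to between −0.024 and −0.18, with a median of −0.15, and 0 of 7 were called, against 0.914% of all probe sets called lower. At an unadjusted p under 0.05 there were 4 of 7, and 1509 of all 9520 probe sets in either direction. RT1-Bb had −0.18 ± 0.058 and RT1-DMb −0.024 ± 0.074. With marker signals set to at least the filter signal the slopes lay between −0.15 and 0.0012 with a median of −0.13. Of the 7, 0 were called (4 at an unadjusted p under 0.05), against 0.998% of all probe sets called lower.

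**Figure D3:**
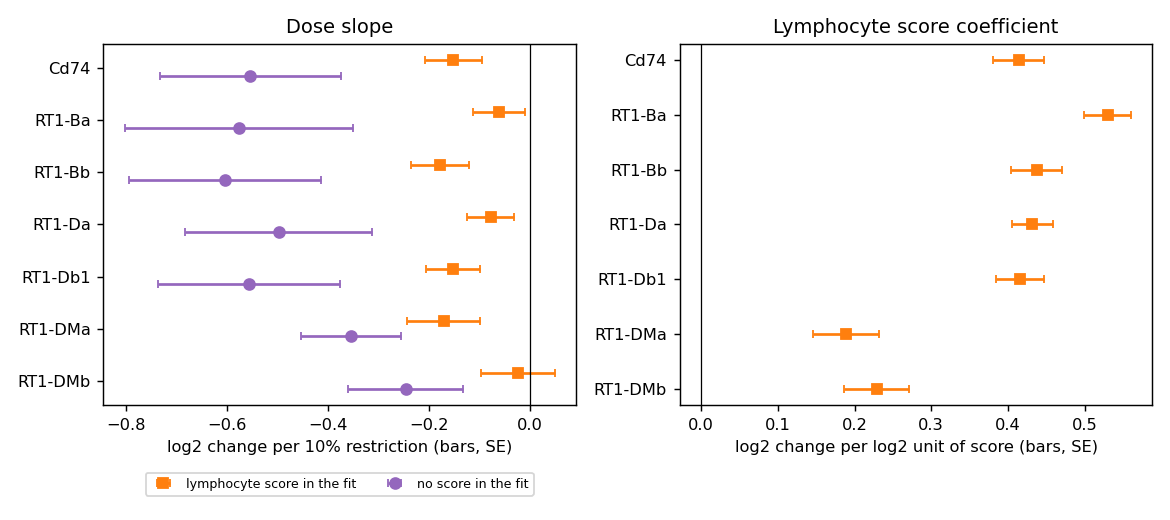
Dose slopes of the 7 class II genes with and without the lymphocyte score in the fit (left) and the coefficients of that score (right), with SE bars over 10 pools. The slopes lie between −0.024 and −0.18 with the score and between −0.25 and −0.60 without it, and the score coefficients lie between 0.19 and 0.53.

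Macrophages carry class II molecules too, and the mean log2 signal of 13 macrophage markers lay between 7.40 and 7.79 in restricted pools, below the 7.88 and 8.31 of the control pools. Their median slope was −0.10, and 11 of the 13 slopes were negative. Of the 13, Aif1, a calcium-binding protein of macrophages, fell (−0.40 ± 0.10 SE, adjusted p = 0.0365), and Mertk, a receptor for dying cells (0.25 ± 0.053, adjusted p = 0.0199), and Cd14, the lipopolysaccharide coreceptor (0.16 ± 0.043, adjusted p = 0.0422), rose. On that slope 351 of all 9520 probe sets fell and 544 rose. Set as restricted against control pools, 4 of the 13 fell (Aif1, Lyz2, Tyrobp and Fcer1g) and 0 rose, with a median of −0.44. Of all 9520 probe sets 152 fell and 413 rose in that comparison. Lyz2, a lysozyme of phagocytes, read 2857, 1925, 1001, 777 and 1543 at 1 month and 2108, 1317, 1267, 1098 and 780 at 1 week, with a slope of −0.37 ± 0.12 (SE, adjusted p = 0.0706). Mpeg1, a pore-forming protein of macrophages, read 263, 154, 44.7, 57.2 and 109 at 1 month and 182, 106, 120, 81.7 and 47.5 at 1 week, with a slope of −0.48 ± 0.17 (SE, adjusted p = 0.0893). Both genes were lowest in the 10% and 20% pools at 1 month and the 30% pool at 1 week. Not all of the 13 had those low pools. Cd68 read 119, 117, 138, 117 and 115 at 1 week from the control to the 30% pool. Csf1r was lowest in the 20% and 5% pools at 1 month, at 195 and 204. With the macrophage score in the fit its coefficient for the class II genes had a median of 2.19 and 0 of 7 were called by limma, against 0% of all probe sets. At an unadjusted p under 0.05 there were 7 of 7, and 1579 of all 9520 probe sets in either direction. The dose slopes then had a median of −0.22, with 0 of 7 called, against 0.347% of all probe sets called lower. At an unadjusted p under 0.05 there was 1 of 7, and 1413 of all probe sets in either direction. Setting the restricted against the control pools with that score in the fit turned 4 of the 7 estimates positive, none past the threshold.

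**Figure D4:**
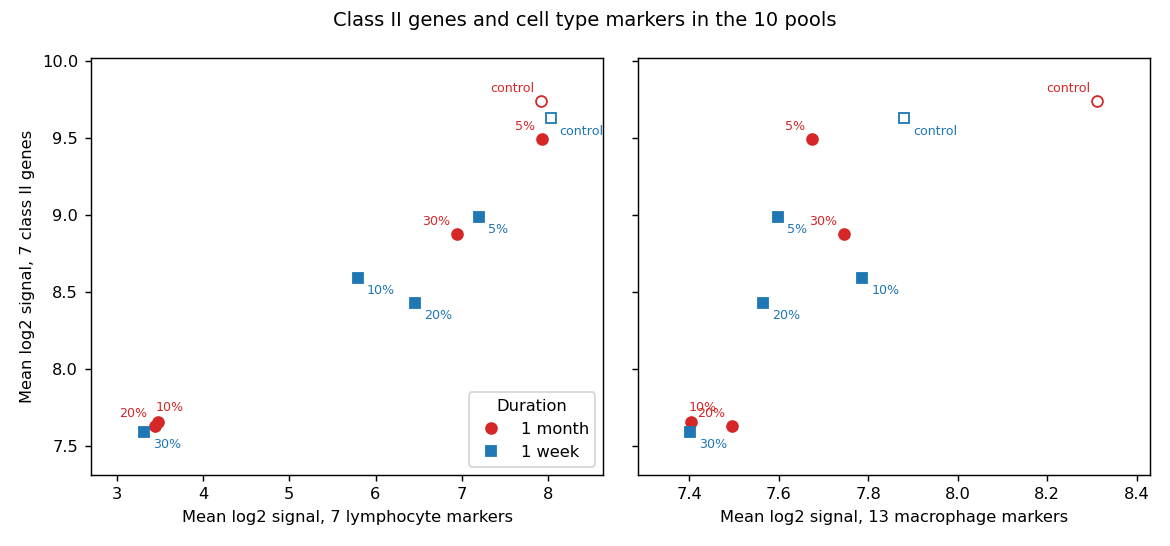
Mean log2 signal of the 7 class II genes against the mean of 7 lymphocyte markers (left) and of 13 macrophage markers (right), 1 point per pool, control pools open. The 3 pools with a lymphocyte score between 3.31 and 3.48 are the 3 lowest in class II genes (7.59 to 7.66), and the macrophage score spans only 7.40 to 8.31.

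Dendritic cell markers gave 3 tested genes with a median slope of −0.51 and 0 called by limma (2 at an unadjusted p under 0.05). Cd83, a protein of mature dendritic cells that restrains the turnover of class II on the cell surface, had a slope of −0.57 ± 0.17 (SE, adjusted p = 0.0572), and Clec9a, a receptor of cross-presenting dendritic cells, of −0.51 ± 0.33 (adjusted p = 0.314). Clec10a, a lectin of dendritic cells and macrophages, had a positive slope of 0.12 ± 0.040 (adjusted p = 0.0715). Lymph node stroma gave 4 tested genes with 0 called by limma (2 at an unadjusted p under 0.05). The B cell attractant Cxcl13 read 546, 322, 18.3, 17.1 and 222 at 1 month and 364, 197, 213, 85.3 and 25.3 at 1 week, and Glycam1, a ligand made by lymph node venules, 526, 258, 18.4, 25.0 and 161 at 1 month and 472, 232, 101, 86.2 and 32.3 at 1 week. Both genes were lowest in the 3 pools in which the lymphocyte markers were lowest. Madcam1, an adhesion molecule of venules, read between 53.4 and 74.5 in all 10 pools, with a slope of −0.0045 ± 0.053 (adjusted p = 0.968), and Lyve1, a receptor of lymphatic vessels, read between 203 and 317, with a slope of 0.048 ± 0.050 (adjusted p = 0.553). The part of these markers in the class II result was not tested.

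Other genes of the class II pathway had a median slope nearer to 0. Of 30 listed, 19 were tested, 0 fell (11 changed in either direction at an unadjusted p under 0.05) and 1 rose. On the same slope 351 of all 9520 probe sets fell and 544 rose. The 19 genes had a median slope of −0.083, and 14 had a negative slope. The gene of the 19 that rose was Mif, a cytokine that binds the Cd74 protein at the cell surface (0.22 ± 0.035 SE, adjusted p = 0.00712). It read 370, 489, 493, 531 and 625 at 1 month and 466, 524, 477, 623 and 766 at 1 week, so that it was above control in all 8 restricted pools while Cd74 was below.

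Ciita, the coactivator of class II transcription, read 49.9, 49.1, 7.13, 24.5 and 33.5 at 1 month and 61.9, 41.2, 34.0, 22.7 and 17.5 at 1 week, with a slope of −0.36 ± 0.22 (SE, adjusted p = 0.281). Its signals were below that of the filter in 3 pools, and its 2 lowest pools were the 10% pool at 1 month and the 30% pool at 1 week. Irf8, a transcription factor of dendritic and B cells picked out after its values were seen, had a slope of −0.66 ± 0.25 (adjusted p = 0.111) and read 21.7 and 22.0 in the 10% and 20% pools at 1 month, against 201 in their control pool. The protease Ctss, which trims the invariant chain, had a slope of −0.13 ± 0.059 (adjusted p = 0.155) and was lower in the 8 restricted than in the 2 control pools by 0.55 ± 0.10 on the log2 scale (adjusted p = 0.0188), whereas the protease Ctsd was higher by 0.36 ± 0.089 (adjusted p = 0.0395). Ifi30, the thiol reductase of endosomes, had a slope of −0.22 ± 0.068 (adjusted p = 0.0632). RT1-DOa and RT1-DOb, which encode the DM inhibitor, were not analysed here.

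Of 19 tested class I pathway genes 2 fell and 0 rose on the dose slope, with a median of −0.090. Beside these, 351 of all 9520 probe sets fell and 544 rose. The 2 class I pathway genes were the immunoproteasome subunit gene Psmb9 (−0.41 ± 0.11 SE, adjusted p = 0.0405) and the chaperone gene Calr (−0.13 ± 0.028, adjusted p = 0.0211). Psmb9 read 298, 262, 96.4, 101 and 139 at 1 month and 231, 180, 135, 132 and 87.1 at 1 week, with its low pools the same as those of the class II genes. B2m, the shared class I light chain, had a slope of 0.019 ± 0.032 (adjusted p = 0.732). Of 6 tested genes of interferon gamma signalling 0 were called by limma (2 at an unadjusted p under 0.05), with a median slope of −0.053; the target gene Irf1 had −0.23 ± 0.077 (adjusted p = 0.0775) and Gbp2 −0.11 ± 0.046 (adjusted p = 0.14).

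Among themselves the 7 genes had closely parallel profiles. After the mean of each duration was removed, each gene correlated with the mean of the other 6 over the 10 pools at 0.948 (RT1-DMb) to 0.997 (RT1-Db1). Since the same libraries carry all genes and 3 pools are far from the rest, these values and those that follow are descriptions. Of the 7113 genes, 417 outside the class II set had a correlation of at least 0.9 with the mean class II profile. The 10 closest were Ptpn6, Gga2, Arhgap30, Glipr1, Slpi, Prkcb, Arhgdib, Ifitm1, Stk17b and Cd83, at 0.993 to 0.996, and none of the 10 slopes passed the threshold. Ptpn6, a phosphatase of blood cells, had the first rank at 0.996 and read 217, 157, 39.5, 38.7 and 91.4 at 1 month and 169, 106, 69.0, 62.8 and 35.6 at 1 week. On the same measure the lymphocyte score correlated at 0.975 and the macrophage score at 0.816.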

How the data were processed

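The authors deposited MAS5 signals (the Affymetrix software is named in the submitters' processing notes), an intensity value on a linear scale for each probe set and chip. The trimmed mean signal (trim 0.02) was 77.2 and 110.9 for first and second chips at 1 week and 97.4 to 97.7 at 1 month, so these sets had been scaled apart. Of 15866 probe sets analysed, 9520 were tested, those with a mean log2 signal no lower than the 40th percentile, which is a signal of 22.8. Signals under 1 were set to 1 before log2 was taken, 0.996% to 3.87% of a chip's values. limma 3.58.1 (R 4.3.3; lmFit, then eBayes with trend) was run two-sided on the pool means of 2 chips, with duration as a term. It left 7 residual degrees of freedom for the slope over both durations and 6 where slopes were separate or a score was added. P-values rest on the scatter of 10 pools about the fitted lines, and the number of arrays limits the precision. The steps were tested on simulated data.

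The class II genes, the gene lists and the tests were chosen with earlier results of these data known. All 7 class II genes were named; of class II pathway genes those past the threshold with Ciita, Ctss, Ifi30 and the DO genes; of other lists up to 3 genes past the threshold or else the 2 of largest slope; and the 10 genes of most similar profile. B2m, Irf8 and Rfx5 were added after their values were seen. Lyz2, Mpeg1, Cd68, Csf1r, Clec10a, Madcam1 and Lyve1 were also named outside that rule. The alternatives covered the floor, the filter, quantile normalization, median centring, each chip and each pool left out, a chip block, scores as terms, the mean of probe sets and a fit with no trend. Those for the score coefficient, and the looser promoter motif, were chosen after seeing the data. Mesothelial and exocrine pancreas markers had 6 and 4 tested genes, with 0 called by limma (4 and 0 at an unadjusted p under 0.05). Their median slopes were 0.15 and −0.34. Adipocyte markers had 7, with a median of 0.078 and 1 rising (Cfd, a complement protease of fat cells, 0.10 ± 0.028 SE). Of all 9520 probe sets 544 rose.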

Additional observations from a re-analysis of the deposited data

How the results depend on the processing

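The limits are the 10 pools, 1 per group, and, for Ciita and most lymphocyte markers, signals below that of the filter in 3 pools each. The slope over both durations called 1 class II gene lower (RT1-DMa). It called 0 with no filter on low signals, without the 30% and control pools of 1 week, with the lymphocyte score, with the macrophage score and with no intensity trend, and 1 with a floor of 16, quantile normalization, median centring or the mean of probe sets. Without 1 chip set or 1 pool it called 0 to 7 class II genes and 26 to 1008 of all probe sets, beside 351. All probe sets called lower were 4 without the 30% and control pools of 1 week, 87 with the lymphocyte score and 33 with the macrophage score. They were 237 of 15866 with no filter, 369 with a floor of 16 and 321 with quantile normalization. With median centring they were 272 and with no intensity trend 271. With the mean of probe sets 249 of 7113 genes were called lower. A fit of the 20 chips had a replicate block and the pool as a random effect, with 1 correlation for all genes (0.358). It called 7 class II genes and 834 probe sets lower for the slope over both durations. At 1 week it called 4 class II genes and 248 probe sets, and at 1 month 0 and 80. For restricted against control it called 7 and 781. The median SE of the class II slopes over both durations was 0.134 in this fit, against 0.180 on pool means. The fit counts the chips of a pool as partly separate samples, although they measure technical spread only. Its added calls are therefore no evidence beyond that of the 10 pools. Whether 1 correlation suits the class II genes was not tested.

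Restricted against control called 0 class II genes and 152 probe sets. It called 1 class II gene with a floor of 16, with median centring and with the mean of probe sets, and 2 with quantile normalization. Of all probe sets, 178 were called lower with a floor of 16 and 139 with median centring. With the mean of probe sets 120 of 7113 genes were called lower. Without 1 chip set or 1 pool the counts were 0 to 7 class II genes and 1 to 966 probe sets. All probe sets called lower were 86 with no filter, 250 with quantile normalization, 0 without the 30% and control pools of 1 week (with fewer pools), 9 with the lymphocyte score, 0 with the macrophage score and 68 with no intensity trend. With the macrophage score in that fit 4 genes turned positive, Cd74 at 0.14, RT1-Ba at 0.47, RT1-Da at 0.26 and RT1-Db1 at 0.11, none of them past the threshold, and with the lymphocyte score RT1-DMb turned positive at 1 week (0.053); the cause was not tested. The score coefficients of RT1-DMa lost their call without the second chips (adjusted p = 0.144). The difference of the slopes, 1 month minus 1 week, had a median of 0.26 over the class II genes and called 0 under every alternative run. Its median was −0.050 without the 30% and control pools of 1 week, −0.064 with the lymphocyte score and −0.59 to 0.55 without 1 chip set or 1 pool. In the other alternatives run for the slope over both durations, the slopes at 1 month and 1 week and restricted against control, each class II gene kept its negative sign, except that 1 slope was 0.0012 with marker signals set to at least the filter signal.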
